A study of Mus musculus with 17 samples.

Results

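Pomc, Cartpt, Mc3r and Mc4r are 4 of the 15355 genes in a table of RNA pulled down with the ribosomes of pro-opiomelanocortin (POMC) neurons, and each was found in the table once, by its gene symbol. They are the transcript that defines these neurons, a second peptide precursor that many of them make, and the 2 melanocortin receptors of the brain. The 17 libraries come from the mediobasal hypothalamus of offspring of POMC-RiboTag female mice, in which a tagged ribosomal protein made in the cells where the driver gene is or has been active is precipitated with an antibody to the HA tag. The dams received standard chow or a diet named as 45% high fat (HFD) starting at an age of 6 weeks, 4 weeks before mating, and kept that food up to weaning. The groups are offspring of chow dams at postnatal day 0 (chow P0, n = 5), of HFD dams at day 0 (HFD P0, n = 5), of chow dams at day 21 (chow P21, n = 3) and of HFD dams at day 21 (HFD P21, n = 4). All 4 groups carry the RiboTag system. Strain, sex, the driver line and the number of animals behind a library are not stated in the sources used. The labels call the samples biological replicates without naming animals, litters or pools, so the p-values below reflect only how much these samples vary.

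Pomc encodes a precursor that prohormone convertases cut into several peptides, among them alpha-MSH, the melanocortin that lowers food intake. Alpha-MSH acts on the receptors MC3R and MC4R, which raise cyclic AMP in the receiving cell, while AgRP from neighbouring neurons of the arcuate nucleus blocks them. Cartpt encodes the CART peptides, which are released from many of the same neurons and also lower food intake.

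The start regions of the 2 peptide genes are shown because these genes had the largest changes with age of the 4. They were read from the RefSeq promoter table (GRCm38.p6), on the strand of the gene and 5′ to 3′. The Pomc sequence covers chr12:3954695-3954944 on the plus strand, the 250 bases before the RefSeq start. The Cartpt stretches cover chr13:99900667-99900696 and chr13:99900777-99900806 on the minus strand. Capitals mark the letters TATAA, the core of a TATA box, or TGACGTCA, the full cAMP response element.

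Pomc: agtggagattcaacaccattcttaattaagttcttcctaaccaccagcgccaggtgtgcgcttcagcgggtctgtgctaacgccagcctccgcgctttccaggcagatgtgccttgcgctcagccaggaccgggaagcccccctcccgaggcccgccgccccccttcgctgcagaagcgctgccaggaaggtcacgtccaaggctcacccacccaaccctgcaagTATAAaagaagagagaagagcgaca
Cartpt, TATAA: atttcaaccggcTATAAgaagccggagagc
Cartpt, TGACGTCA: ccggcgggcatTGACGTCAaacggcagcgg

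TATAA began 25 bases before the RefSeq start of Pomc and 1 base before that of Cartpt, and TGACGTCA began 112 bases before the start of Cartpt. GENCODE M21 gives Cartpt a pair of transcripts whose starts lie at 99900641 and 99901091 on chromosome 13, so both Cartpt stretches lie between these starts. Searched on both strands as TATAA or TTATA, the first motif was present in 24.9% of 32851 windows of 300 bases around RefSeq starts. TGACGTCA, which reads the same on both strands, was present in 1.79% of them. The window of Mc3r held neither. These are matches of letters and were not measured as bound sites.

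In GENCODE M21 (GRCm38, the mm10 assembly) Pomc lies on chromosome 12 from 3954951 to 3960642, plus strand, with 1318 exonic bases. Cartpt lies on chromosome 13 from 99898489 to 99901091, minus strand, with 1277 exonic bases. Mc3r is a single exon of 2623 bases on chromosome 2 from 172248492 to 172251114, plus strand, and Mc4r a single exon of 2803 bases. None of the 4 shares exonic bases with another annotated gene, on either strand.

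The deposited values are normalised read counts in scaled counts-per-million-like units, from libraries of 22.4 to 37.1 M (mega) reads counted to genes. Each read counted for 0.0275 to 0.0460 units depending on the library, and a value of 0 allows up to 3 reads, or 0.0826 to 0.138 units, which covers counting error only. Changes are log2 differences of value + 1 from limma, tested two-sided, and a gene passed when its p-value adjusted over all genes (Benjamini-Hochberg) was under 0.05. The libraries were labelled as POMC neurons, and Pomc was present in each, at an estimated 2256 to 279884 reads, which is the value divided by what 1 read counted for. Markers of other cells were present too. The summed level of 14 oligodendrocyte genes was 8380 to 18672 in chow P21 and 4075 to 7496 in HFD P21, and that of 12 astrocyte genes was 5462 to 7988 and 2466 to 4188. Chow P21 replicate 3 stood apart from its group in Pomc, Cartpt and Mc3r, and values without it are given beside the results it moved most.

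In chow P0 Pomc was at 146.34, 223.67, 657.22, 890.68 and 1308.23 in replicates 1 to 5. In HFD P0 it was at 90.72, 245.79, 102.17, 181.33 and 1057.28. The 2 P0 groups overlapped, and HFD replicate 5 lay above 4 of the 5 chow libraries while the other HFD libraries lay below 3 of them.

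In chow P21 Pomc was at 4678.97, 3877.52 and 12069.60. In HFD P21 it was at 9817.70, 8268.31, 7460.14 and 8527.77. Every HFD P21 library lay between chow replicate 3 and the other 2 chow libraries, and all 7 lay above the 10 P0 libraries. Pomc reads made up 0.0158% to 0.124% of the library in chow P0 and 0.00964% to 0.104% in HFD P0, against 0.379% to 1.17% in chow P21 and 0.675% to 0.906% in HFD P21.

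Cartpt in chow P0 was at 22.05, 15.86, 105.57, 7.21 and 8.89. In HFD P0 it was at 15.44, 11.61, 15.36, 16.73 and 7.93. Apart from chow replicate 3 the P0 libraries of both diets lay in 1 range, 7.21 to 22.05.

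In chow P21 Cartpt was at 834.00, 663.41 and 391.17. In HFD P21 it was at 2760.97, 2138.98, 2287.20 and 1912.00. The lowest HFD P21 library lay above the highest chow P21 library, and the lowest chow P21 library above every P0 library. Chow P21 replicate 3, the library with the most Pomc of all 17, had the least Cartpt of the 7 at P21.

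Mc3r encodes a Gs-coupled receptor found on arcuate neurons, some of the POMC neurons among them. In chow P0 it was at 3.25, 5.45, 6.23, 3.90 and 9.17. In HFD P0 it was at 3.78, 3.69, 0.95, 2.64 and 18.05. HFD replicate 5, which was high in Pomc, was high here too, and the groups overlapped.

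In chow P21 Mc3r was at 37.08, 33.55 and 14.25, and in HFD P21 at 55.14, 40.45, 50.71 and 56.39. The P21 groups did not overlap. The gap between them was narrow, from 37.08 to 40.45, and chow replicate 3 was again the lowest.

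Mc4r encodes the receptor through which alpha-MSH lowers food intake in the paraventricular nucleus. In chow P0 it was at 5.25, 0.24, 2.87, 4.06 and 7.53, and in HFD P0 at 6.03, 4.20, 1.75, 3.72 and 2.66. In chow P21 it was at 7.0, 9.01 and 8.04, and in HFD P21 at 17.61, 13.98, 17.13 and 15.27. Both P0 groups overlapped each other, chow P0 overlapped chow P21, and HFD P21 lay above the other 13 libraries. Its values correspond to an estimated 6 to 188 reads per library in chow P0 and 423 to 505 in HFD P21.

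**Figure D1:**
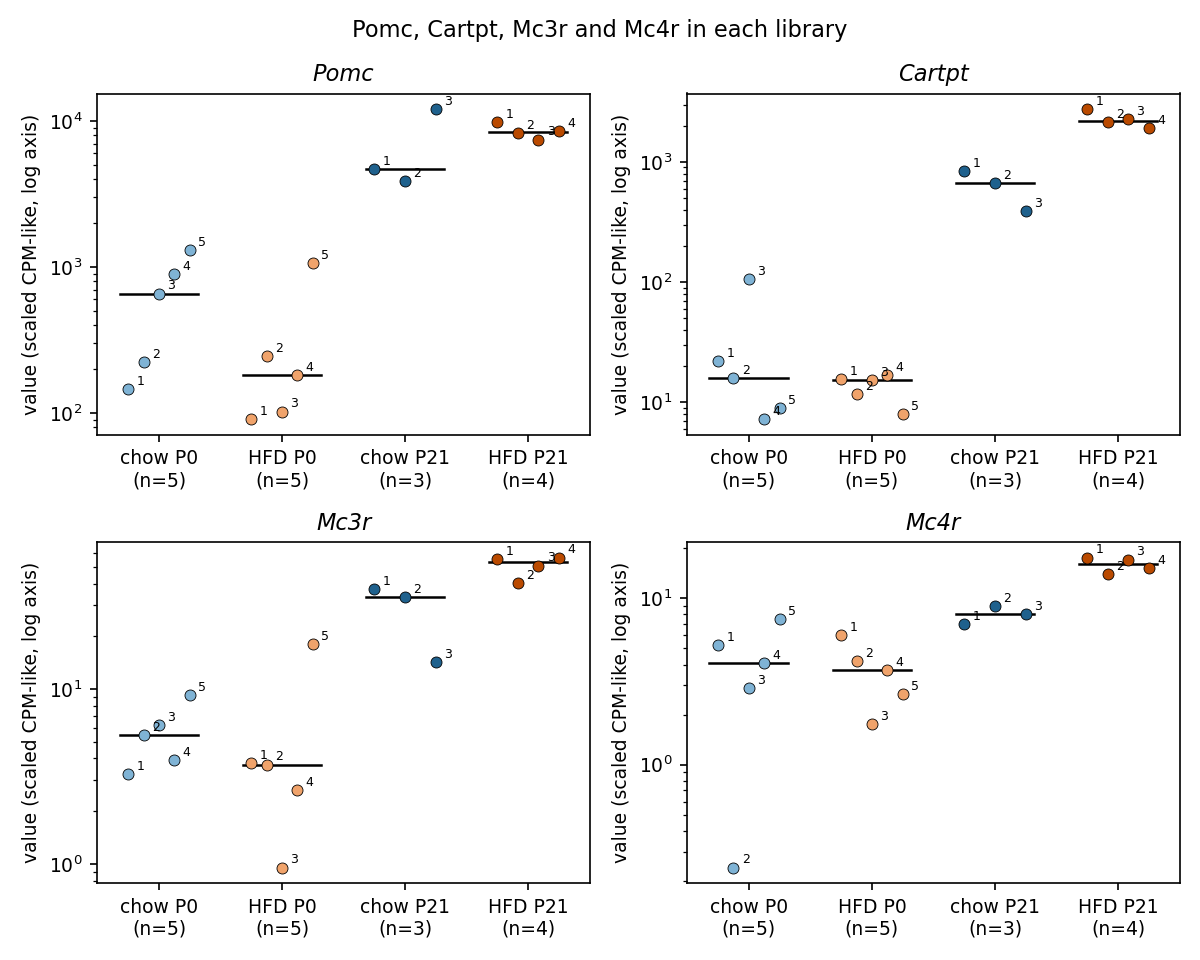
Deposited value of Pomc, Cartpt, Mc3r and Mc4r in each of the 17 libraries, in scaled counts-per-million-like units on a log axis. Points are libraries with their replicate number and lines are group medians. Cartpt, Mc3r and Mc4r are above every chow P21 library in all 4 HFD P21 libraries, while Pomc in chow P21 replicate 3 (12069.60) is the highest of all.

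To compare levels between the genes, values were divided by the kilobases of exon. In chow P0 Pomc was at 490 ± 365 units per kilobase (mean ± SD, n = 5), Cartpt at 25.0 ± 32.6, Mc3r at 2.13 ± 0.885 and Mc4r at 1.42 ± 0.968. In HFD P0 the means were 255 ± 310, 10.5 ± 2.83, 2.22 ± 2.64 and 1.31 ± 0.580 (n = 5). Pomc lay above Cartpt in every library, and Cartpt above both receptors in all but HFD P0 replicate 5, where Mc3r was at 6.88 and Cartpt at 6.21. The ranges of the 2 receptors overlapped in both P0 groups.

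In chow P21 Pomc was at 5217 ± 3427 units per kilobase (n = 3), Cartpt at 493 ± 175, Mc3r at 10.8 ± 4.69 and Mc4r at 2.86 ± 0.359. In HFD P21 the means were 6463 ± 742, 1781 ± 281, 19.3 ± 2.76 and 5.71 ± 0.60 (n = 4). Per kilobase Mc3r was above Mc4r in all 7 P21 libraries, by 1.89 to 5.66 times in chow and 3.09 to 3.95 times in HFD. At P0 it was above Mc4r in 4 of 5 chow libraries and 1 of 5 HFD libraries.

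The coefficient of variation over libraries described how evenly a group behaved. In HFD P21 it was 11.5% for Pomc, 15.8% for Cartpt, 14.3% for Mc3r and 10.5% for Mc4r. In chow P21 the same values were 65.7%, 35.5%, 43.4% and 12.5%. At P0 it ran from 41.5% for Mc3r to 130.3% for Cartpt in chow, and from 26.9% for Cartpt to 121.7% for Pomc in HFD. The 4 genes were thus measured most evenly in HFD P21, and Mc4r had the lowest value of the 4 in both P21 groups. Chow P21 replicate 3 enters the chow values, at 12069.60 for Pomc, 391.17 for Cartpt and 14.25 for Mc3r. Replicates 1 and 2 were closer to each other, at 4678.97 and 3877.52, 834.00 and 663.41, and 37.08 and 33.55.

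The comparison of P21 with P0 asks how the 4 transcripts differed between birth and weaning under each diet. In chow offspring Pomc, Cartpt and Mc3r rose, which is 3 of the 4, where 36.1% of the 14549 genes tested passed and 18.3% passed as higher. Pomc, at 645 ± 481 in chow P0 (mean ± SD, n = 5), reached 6875 ± 4516 in chow P21 (n = 3), a rise of 3.65 on the log2 scale (SE 0.62, limma adjusted p = 0.000613). Cartpt rose from 31.9 ± 41.6 to 630 ± 223, a log2 change of 4.90 (SE 0.63, limma adjusted p = 8.23e-05).

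Mc3r rose from 5.60 ± 2.32 to 28.3 ± 12.3, a log2 change of 2.11 (SE 0.37, limma adjusted p = 0.000698). On the 4 chow libraries with recovered reads, 3 at P0 and 1 at P21, Mc3r did not pass (1.21 with edgeR, adjusted p = 0.280). Mc4r was at 3.99 ± 2.71 and 8.02 ± 1.01, a log2 change of 1.10 that did not pass (SE 0.51, limma adjusted p = 0.109). Its groups overlapped, and it passed at 1.36 without chow P0 replicate 5 (adjusted p = 0.0483). Without chow P0 replicate 2, which held an estimated 6 reads of Mc4r, its change was 0.66. The groups did not overlap for the other 3 genes, with P21 higher, as for 19.3% of all genes tested. In bulk RNA a change in the number of cells of a type and a change in RNA per cell cannot be told apart.

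Markers of other cells moved with age in the same chow libraries. Of 14 oligodendrocyte genes 12 rose (median log2 change 4.55), of 12 astrocyte genes 10 (2.10), of 12 microglial genes 9 (1.03), of 17 genes of other hypothalamic neurons 11 (1.28) and of 7 tested genes of Agrp and Npy neurons 4 (1.68). Of 10 tanycyte and radial glia genes 7 fell (-1.25), and of 8 fibroblast genes 6 (-1.44). Over all genes tested 36.1% passed, 18.3% as higher and the others as lower. The oligodendrocyte sum was 441 to 1070 in chow P0 and the astrocyte sum 1400 to 2274, below their chow P21 values. Their part in the age differences was not tested.

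In HFD offspring all 4 rose from P0 to P21, where 50.9% of the 14245 genes tested passed and 24.7% passed as higher. Cartpt, at 13.4 ± 3.61 in HFD P0 (n = 5), reached 2275 ± 359 in HFD P21 (n = 4), a ratio of means of 169.6. Its log2 change of 7.33 (SE 0.20, limma adjusted p = 1.86e-11) was the first of all genes tested by p-value. Pomc rose from 335 ± 408 to 8518 ± 978, a log2 change of 5.31 (SE 0.52, limma adjusted p = 2.56e-06).

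Mc3r rose from 5.82 ± 6.93 to 50.7 ± 7.24, a log2 change of 3.37 (SE 0.48, limma adjusted p = 6.09e-05). Mc4r rose from 3.67 ± 1.62 to 16.0 ± 1.68, a log2 change of 1.93 (SE 0.29, limma adjusted p = 0.000108). The groups did not overlap for any of the 4, with P21 higher, as for 19.0% of all genes tested. With each of the 9 libraries left out in turn all 4 still passed, with log2 changes of 5.00 to 5.88 for Pomc, 7.17 to 7.42 for Cartpt, 3.03 to 3.85 for Mc3r and 1.76 to 2.09 for Mc4r. The lowest change of Cartpt and the highest of Pomc and Mc3r were found without HFD P0 replicate 5.

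In HFD offspring too the markers of other cells moved with age. Of the oligodendrocyte genes 11 of 14 rose (median log2 change 3.78), of the astrocyte genes 9 of 12 (1.33), of the genes of other hypothalamic neurons 13 of 17 (1.43) and of the genes of Agrp and Npy neurons 5 of 7 (2.70). Of the microglial genes 4 of 12 rose (0.54), fewer than in chow offspring, and 2 of the 12 astrocyte genes fell. Of the fibroblast genes 7 of 8 fell (-2.33) and of the tanycyte and radial glia genes 6 of 10 (-1.54). Of the endothelial and mural genes 6 of 12 fell (-1.05), and of 8 tested choroid plexus and ependyma genes 4 (-0.53). Over all genes tested 50.9% passed, 24.7% as higher and the others as lower. The microglial share that rose was not far above that of all genes. The sums in HFD P0 were 340 to 465 for oligodendrocytes and 1516 to 2122 for astrocytes, below those of HFD P21. Here too their part was not tested.

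The comparison of HFD with chow at P0 asks how the transcripts differed with the dam's food at birth. None of the 4 passed, where 0.291% of 14086 genes did, none had an unadjusted p under 0.05, where 9.28% of genes did, and edgeR on the recovered reads of 5 libraries called none. Pomc was at -1.16 on the log2 scale, with a 95% interval of -2.57 to 0.24 (limma adjusted p = 0.621). Without HFD replicate 5 it was at -1.74 (adjusted p = 0.112), and without chow replicate 5 at -0.80.

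Cartpt was at -0.53 with an interval of -1.67 to 0.61 (limma adjusted p = 0.819), and at 0.071 without chow replicate 3, the library at 105.57. Mc3r was at -0.34 with an interval of -1.37 to 0.69 (limma adjusted p = 0.879). It was at -0.83 without HFD replicate 5 and at -0.0034 without HFD replicate 3. Mc4r was at 0.085 with an interval of -0.88 to 1.05 (limma adjusted p = 0.975). It was at -0.35 without chow replicate 2, at 0.34 without chow replicate 5, and at -0.014 with 5 in place of 1 added before the log. At this spread the P0 libraries bound a difference in Pomc only to that range, which holds both a large fall and a small rise.

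At weaning the same comparison set 4 HFD against 3 chow libraries. Cartpt rose, 1 of the 4, where 0.178% of 14070 genes passed and 0.0995% passed as higher. Its log2 change of 1.91 (SE 0.23, 95% interval 1.41 to 2.40, limma adjusted p = 0.0137) corresponds to a ratio of means of 3.61. It passed with each of the 7 libraries left out, from 1.60 without chow replicate 3 to 2.14 without chow replicate 1. Without HFD replicate 2 it passed only narrowly (limma adjusted p = 0.0499). With all 17 libraries in 1 fit, where the wide spread of Cartpt at P0 enters, its adjusted p was 0.137.

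Mc4r was at 0.92 (SE 0.24, 95% interval 0.40 to 1.43, limma adjusted p = 0.107), a ratio of means of 2.00, and did not pass. With 1 library left out it stayed between 0.83 and 0.99. Mc3r was at 0.92 too (SE 0.29, 95% interval 0.28 to 1.55, limma adjusted p = 0.159), but at 0.50 without chow replicate 3. Pomc was at 0.49 (SE 0.31, 95% interval -0.19 to 1.17, limma adjusted p = 0.447). It was at 0.99 and passed without chow replicate 3 (adjusted p = 0.0498), at 0.31 without chow replicate 1 and at 0.17 without chow replicate 2.

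At P21 the diet groups did not overlap, with HFD higher, for Cartpt, Mc3r and Mc4r, as for 8.34% of all genes tested. Pomc was the exception. Chow replicate 3 also held 13.97 units of Agrp, against 183.61 and 132.50 in the other chow libraries, and the largest oligodendrocyte sum of the 7. For a list of 12 pituitary genes, of which 5 were analysed, the sum was 36.1 to 66.5 in chow P21 and 32.4 to 72.7 in HFD P21, with chow replicate 3 and HFD replicate 4 the highest. The oligodendrocyte and astrocyte sums given above did not overlap between the diets at P21. Nor did the microglial sum, at 368 to 614 in chow and 235 to 325 in HFD, or the endothelial and mural sum, at 182 to 253 and 88.7 to 164. The 12 genes of each of these 2 lists lay below 0 without passing (median log2 changes -0.84 and -1.01). The Agrp and Npy neuron sum differed in the other direction, with 236 to 950 in chow and 1004 to 1660 in HFD over 8 genes. Of the 12 astrocyte genes 4 fell in HFD P21 (Agt, Hepacam, Gjb6 and Apoe), and all 14 oligodendrocyte genes lay below 0 without passing. Over all genes tested 0.178% passed, 0.0995% as higher and the others as lower. Of the 8 genes listed for Agrp and Npy neurons 2 rose, Npy1r and Serpina3n, neither of them specific to these neurons. Agrp and Npy themselves did not pass, and the diet groups overlapped for both. Agrp was at 13.97 to 183.61 in chow and 120.86 to 264.56 in HFD. Npy was at 51.93 to 505.54 in chow and 396.47 to 740.28 in HFD. The log2 change of Agrp was 1.35, and 0.22 without chow replicate 3. None of these lists had a gene at 0 in every library of a group. Their part in the diet differences was not tested.

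**Figure D2:**
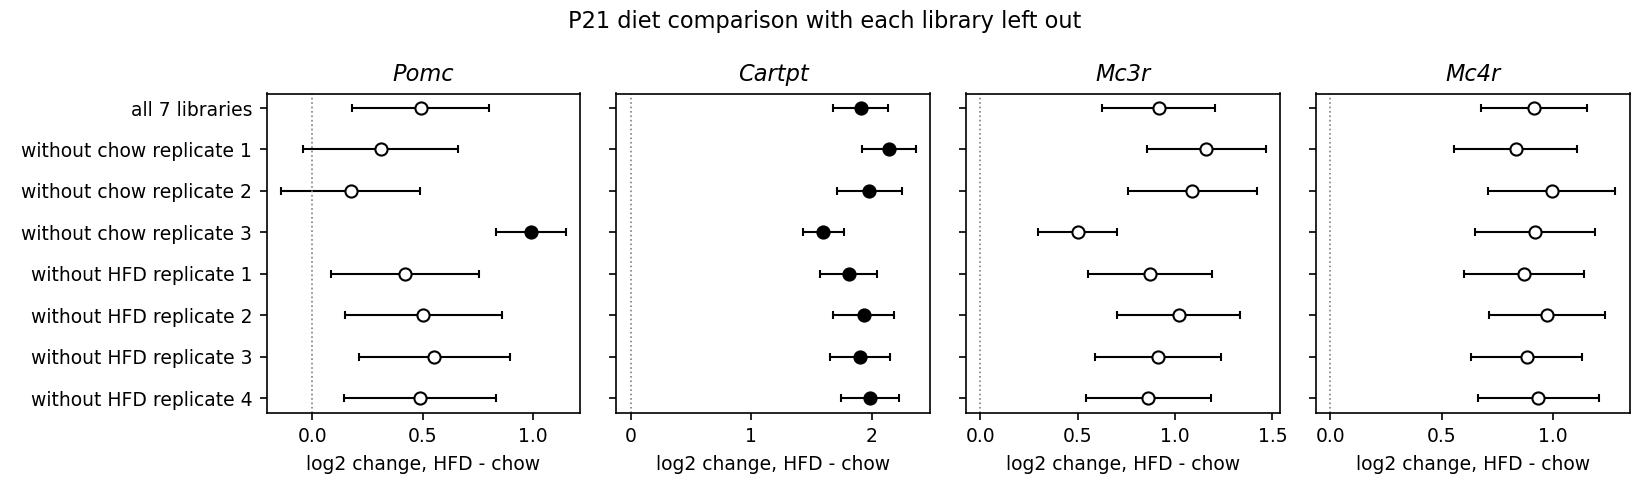
Log2 change between HFD and chow at P21 for each gene with all 7 libraries and with each left out. Points are limma estimates, bars are standard errors, and filled points passed (adjusted p under 0.05). Cartpt is filled in every row, and Pomc only without chow replicate 3, at 0.99.

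The difference between the 2 diet effects, P21 less P0, was tested over all 17 libraries. None of the 4 passed, where 0.0266% of 15037 genes did (4 genes). Cartpt was at 2.44 (SE 0.71, limma adjusted p = 0.136) and was the only one of the 4 with an unadjusted p under 0.05, where 15.2% of genes had one. Pomc was at 1.66 (adjusted p = 0.403), Mc3r at 1.26 (adjusted p = 0.381) and Mc4r at 0.83 (adjusted p = 0.516). So the rise of Cartpt at P21 was not shown to differ from its diet effect at P0, nor the larger changes with age in HFD offspring from those in chow.

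**Figure D3:**
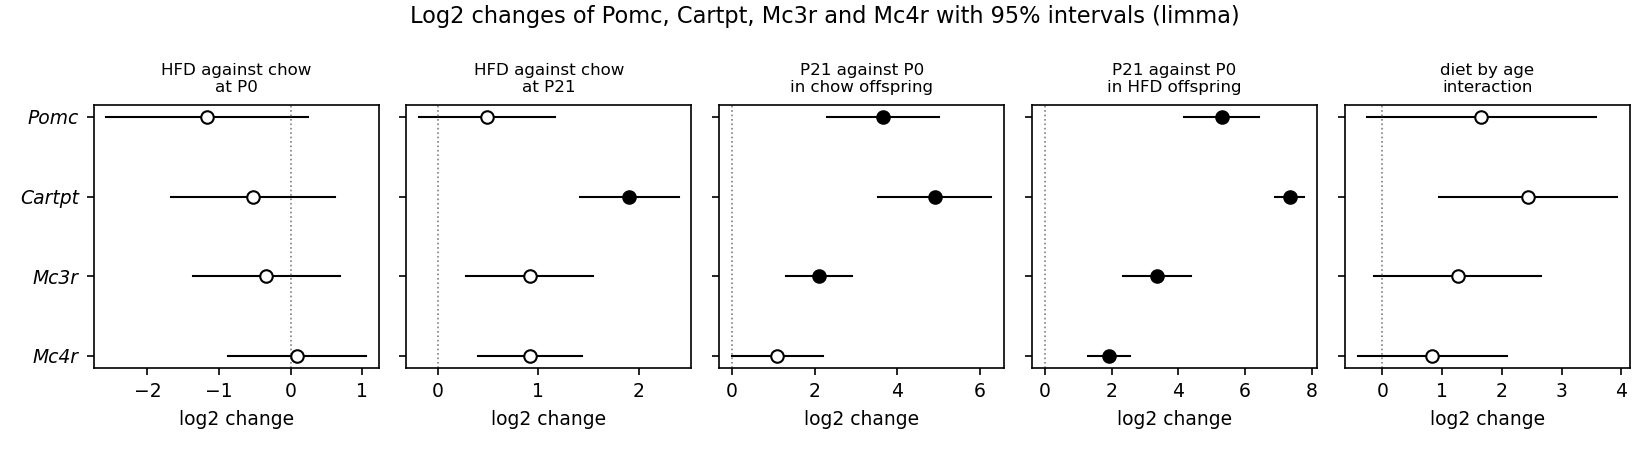
Log2 changes of the 4 genes in the 5 comparisons, as limma estimates with 95% intervals and the groups of the panel titles. Filled points passed (adjusted p under 0.05), the interaction is the diet change at P21 less that at P0, and each panel has its own scale. Cartpt has the largest change with age under both diets and is the one filled point in the diet panels, at 1.91.

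Cartpt and the receptors were also set against Pomc of the same library. The percents below are ratios of deposited values, not corrected for gene length, and the tested log2 ratios are of value + 1, so they keep some dependence on scaling. Cartpt as a percent of the Pomc value was 15.1%, 7.09%, 16.1%, 0.809% and 0.680% in chow P0. In HFD P0 it was 17.02%, 4.72%, 15.03%, 9.23% and 0.750%. The ratio spread widely within each P0 group, and the 3 lowest values belong to chow replicates 4 and 5 and HFD replicate 5, which had the most Pomc at P0.

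In chow P21 the percent was 17.8%, 17.1% and 3.24%, and in HFD P21 28.1%, 25.9%, 30.7% and 22.4%. The P21 groups did not overlap. The difference in mean log2 ratio was 1.41, with p = 0.0571 in an exact two-sided permutation test, the smallest that 4 against 3 libraries can give (0.137 adjusted over 12 ratio tests). Without chow replicate 3 the difference was 0.61.

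From P0 to P21 in HFD offspring the Cartpt to Pomc ratio was higher by 2.03 on the log2 scale, with no overlap (exact permutation p = 0.0159, the smallest possible, adjusted 0.0635). In chow offspring the difference was 1.24 (exact permutation p = 0.393), and 0.63 to 2.05 with 1 library left out, lowest without chow P0 replicate 5 and highest without chow P21 replicate 3. Mc3r to Pomc was lower at P21 by 1.94 in HFD offspring (exact permutation p = 0.0159, adjusted 0.0635), and the chow difference was -1.54 (exact permutation p = 0.25), or -0.62 without chow P21 replicate 3. Mc4r to Pomc differed by -3.38 in HFD offspring (exact permutation p = 0.0159, adjusted 0.0635) and by -2.55 in chow offspring (exact permutation p = 0.0357, adjusted 0.107). No ratio test passed 0.05 after adjustment.

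Between diets Mc3r to Pomc differed by 0.82 on the log2 scale at P0 (exact permutation p = 0.151) and by 0.42 at P21 (p = 0.857 in the exact permutation test). Mc4r to Pomc differed by 1.25 at P0 (exact permutation p = 0.175) and by 0.42 at P21 (exact permutation p = 0.514). The P0 difference of Mc3r was 0.51 when chow replicate 4 was left out. That of Mc4r was 0.78 when HFD replicate 1 was left out and 1.89 when HFD replicate 5 was. Without chow P21 replicate 3 both P21 differences were below 0, at -0.49 for Mc3r and -0.073 for Mc4r.

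**Figure D4:**
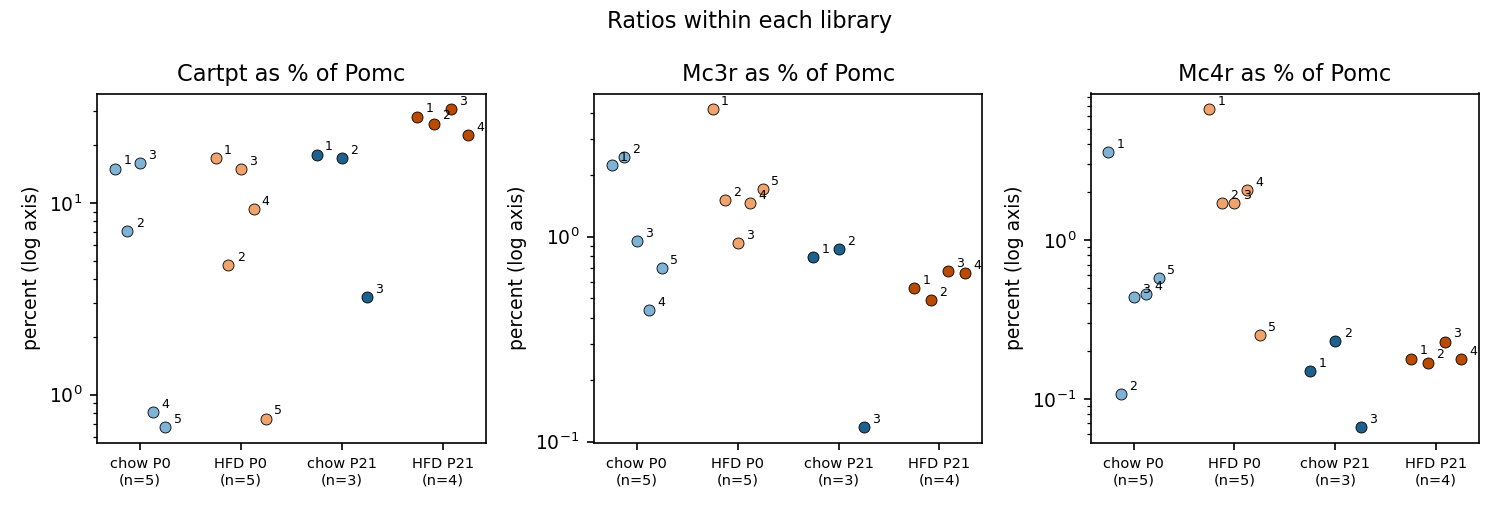
Cartpt, Mc3r and Mc4r as a percent of the Pomc value of the same library, on log axes, with the replicate number beside each point. The 4 HFD P21 libraries lie between 22.4% and 30.7% for Cartpt, above the 3 chow P21 libraries. Chow P21 replicate 3 is the lowest of its group in each panel.

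Over libraries, each gene was described by its deviation from its group mean on the log2 scale. These correlations describe 17 libraries that share depth, scaling and purity with one another, and carry no p. Pomc and Mc3r had a Pearson r of 0.57 (Spearman 0.33). The r was 0.76 over the 10 P0 libraries and 0.51 without HFD P0 replicate 5. Over the 7 P21 libraries it was -0.86, and 0.43 without chow P21 replicate 3, so its sign at P21 rested on that library.

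Pomc and Cartpt had an r of -0.35 (Spearman -0.49). At P21 the r of -0.74 became 0.67 without chow replicate 3. At P0 the r was -0.31, and -0.91 without chow replicate 3, the library with high Cartpt. Mc4r followed none of the others closely, with r between -0.12 for Cartpt and 0.19 for Pomc.

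Of the 15037 genes above 1 unit in at least 3 libraries, the 5 whose deviations were most like those of Pomc were Calr, an endoplasmic reticulum chaperone, Hsph1, a heat shock protein, Trmt12, a tRNA modifying enzyme, Pkm, a glycolytic enzyme, and Syt11, a synaptotagmin. Their r was 0.93 to 0.94 over 17 libraries. For Mc3r they were Atp8a1, a phospholipid flippase, Unc5d, a netrin receptor, D3Bwg0562e, Igsf1 and Fancd2, with r of 0.89 to 0.92. For Mc3r all 5 stayed above 0.84 at P0 and at P21 taken apart, but without chow P21 replicate 3 their r at P21 lay between 0.23 and 0.93.

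For Cartpt the 5 were Efr3a, Pole, Arhgap15, Slc16a9 and Rragd, with r of 0.81 to 0.87 (Spearman 0.42 to 0.71, lowest for Efr3a). Of these Efr3a had r = 0.93 over the P0 libraries and -0.18 over the P21 libraries. For Mc4r they were Gas2, Pet112, Socs3, Hfe and 1700023E05Rik, with r of 0.81 to 0.87 (Spearman 0.48 to 0.77, lowest for Hfe). Their r over the P21 libraries lay between -0.23 and 0.36, so the likeness to Mc4r was seen over the P0 libraries. The Cartpt list was not redone without chow P0 replicate 3, high in Cartpt, nor the Mc4r list without chow P0 replicate 2, low in Mc4r. Among the pathway genes listed below, and picked out here after their values were seen, Tbx3, a transcription factor of POMC neurons, had r = 0.81 with Pomc over 17 libraries, 0.99 at P0 and -0.63 at P21. Without chow P21 replicate 3 the r at P21 was 0.60.

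The remaining genes of the pathway were taken from lists by role. Of the 5 melanocortin receptors 3 were analysed and 2, Mc3r and Mc4r, were above the limit for testing in each two-group comparison. Mc5r, the receptor best known from exocrine glands, was at 0 to 2.59 over all libraries. Of 8 accessory proteins, antagonists and modulators of the receptors 6 were tested.

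From P0 to P21, 2 of these 6 rose and 1 fell under each diet, where 36.1% of all genes tested passed in chow and 50.9% in HFD offspring, so the HFD share is near that of all genes. Mrap2, an accessory protein that alters signalling of melanocortin receptors, rose from 16.0 ± 7.90 to 93.2 ± 25.8 in chow offspring (log2 change 2.58, limma adjusted p = 0.000196). In HFD offspring it rose from 9.41 ± 4.84 to 134 ± 20.1 (3.80, limma adjusted p = 2.31e-07). Sdc3, a syndecan that promotes the action of AgRP, fell by 2.17 in chow and by 1.84 in HFD offspring.

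Agrp, the antagonist, rose by 2.50 in chow offspring (limma adjusted p = 0.0149) and by 4.27 in HFD offspring. On the 4 chow libraries with recovered reads, whose only P21 library is chow replicate 3, it was at -0.095 with edgeR. Its chow call was lost without chow P21 replicate 1 (1.81) and without replicate 2 (2.05), and with a robust prior (adjusted p = 0.0637). Agrp shares 11.3% of its exonic bases with other annotated genes. The median change of the 6 was 0.20 in chow and 0.25 in HFD offspring, against -0.01 and -0.05 over all genes tested.

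The 13 genes that process, sort or break down the Pomc peptides moved mostly upward with age. In chow offspring 10 rose and 1 fell, with a median of 0.95, and in HFD offspring 11 rose and 1 fell, with a median of 1.39. Of all genes tested 18.3% passed as higher in chow and 24.7% in HFD offspring. Pcsk2, the convertase that cuts ACTH further towards alpha-MSH, rose by 1.65 in chow and 1.69 in HFD offspring. Pam, which amidates peptides, rose by 2.16 under both diets.

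Chgb and Chga, granins of the secretory granule, rose by 1.98 and 1.41 in HFD offspring. Pcsk1n, an inhibitor of Pcsk1, rose by 1.09 in chow offspring. The member that fell in both was Prep, a prolyl endopeptidase, by 1.57 in chow and 1.28 in HFD offspring. Prep is one of the peptide-degrading members of the list.

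A list of 14 genes was taken as regulators of Pomc. It also holds Socs3, which restrains leptin signalling, and Bsx, Otp and Hmx2, whose action on Pomc was not tested here. From P0 to P21, 2 of the 14 rose and 1 fell in chow offspring, and 6 rose and 2 fell in HFD offspring. The chow share is below the 36.1% of all genes that passed, and the HFD share is near the 50.9% of all genes. Nr3c1, the glucocorticoid receptor, rose by 1.75 in chow and 1.84 in HFD offspring. Stat3, which carries the leptin signal, rose by 0.89 and 1.62. Nhlh2 fell by 0.72 in chow offspring, a call lost without chow P0 replicate 3 (-0.68), chow P21 replicate 2 (-0.78) or chow P21 replicate 3 (-0.40). Neurod1, a proneural factor, fell by 2.01 and Hmx2 by 1.49 in HFD offspring. Hmx2 was near the floor, at a mean of 2.15 in HFD P0 and 0.11 in HFD P21. At these levels the size of its change depends on the 1 added before the log. The list's median was 0.09 in chow and 0.59 in HFD offspring.

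**Figure D5:**
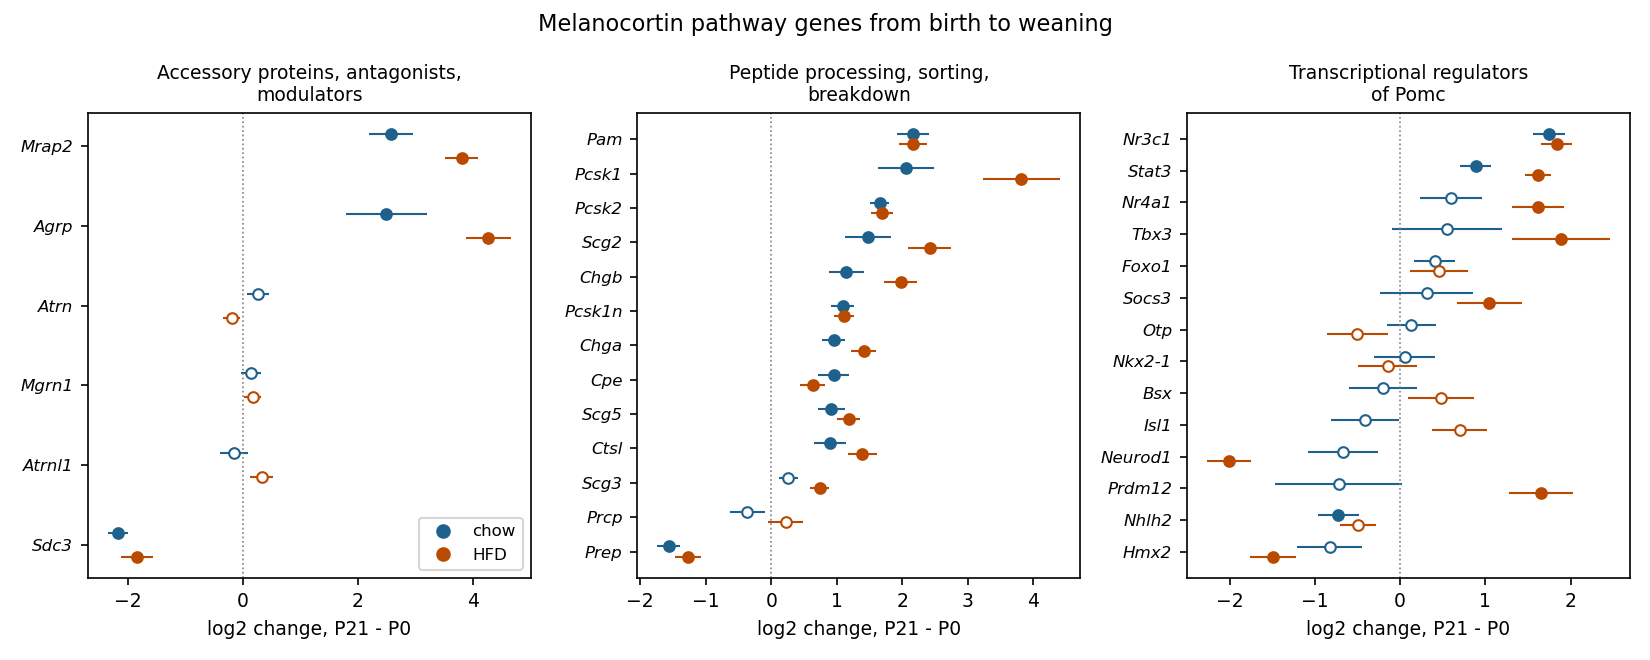
Log2 change from P0 to P21 of the pathway genes by role, in chow (blue) and HFD (orange) offspring. Points are limma estimates, bars are standard errors, and filled points passed (adjusted p under 0.05). Of the 13 processing genes 10 are filled on the right in chow and 11 in HFD, with Prep filled on the left in both.

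Of 14 genes of cells and signalling downstream of the receptors, 4 rose and 1 fell in chow offspring, and 6 rose and 4 fell in HFD offspring, from P0 to P21. The chow share is that of all genes (36.1%), and the HFD share lies above that of all genes (50.9%). Ntrk2, the BDNF receptor, rose by 1.14 in chow and 0.76 in HFD offspring, and Trh, the thyrotropin-releasing hormone precursor, by 1.67 in chow offspring. Prkacb, a catalytic subunit of protein kinase A, rose by 0.68 and 0.89. The chow call of Prkacb was lost without chow P21 replicate 1 (0.63) or replicate 2 (0.64).

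Adcy3, an adenylyl cyclase, rose by 0.85 in chow offspring, a call lost without chow P21 replicate 2 (0.66). Gnas, the Gs alpha subunit, rose by 1.09 in HFD offspring. Sim1, a transcription factor of the paraventricular nucleus, fell by 2.14 in HFD offspring. Adcy3 shares 22.1% and Gnas 22.0% of their exonic bases with other annotated genes. The list's median was 0.30 in chow and 0.48 in HFD offspring.

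Beyond the 4 genes, 1 pathway gene passed between diets, at P0, where 0.291% of the 14086 genes tested did. Prkaca, the other main catalytic subunit of protein kinase A, fell in HFD P0, from 282 ± 69.0 to 98.4 ± 33.0 (n = 5 each), a log2 change of -1.57 (SE 0.26, limma adjusted p = 0.0166). The 2 groups did not overlap, which comes from the same libraries as the call and was not set against the share of all genes. Its call was lost without chow P0 replicate 4 (-1.49), chow P0 replicate 5 (-1.46) or HFD P0 replicate 1 (-1.57), and with all groups in 1 fit (adjusted p = 0.112).

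No other listed gene passed at P0. Those with the smallest p of their lists were Sdc3 at -0.53 and Mrap2 at -0.67, Prep at -0.25 and Chga at -0.25, and Foxo1, a factor that represses Pomc, at -0.72 with Prdm12, a factor of POMC neuron identity, at -1.55. Without chow P0 replicate 5 Prdm12 was at -0.87. Of the 4 genes only Cartpt passed at P21, and no gene of the other pathway lists did, in either direction. The nearest was Socs3, which restrains leptin signalling, at 3.08 ± 1.40 in chow (n = 3) and 10.8 ± 1.15 in HFD (n = 4), a log2 change of 1.58 (limma adjusted p = 0.0649).

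Stat3 was at 0.99 at P21 (adjusted p = 0.0676), Pcsk1, the convertase that first cuts the Pomc precursor, at 0.95 (adjusted p = 0.103) and Chgb at 0.53 (adjusted p = 0.101). Mrap2 was at 0.55 (adjusted p = 0.202) and Agrp at 1.35 (adjusted p = 0.329), but at 0.31 and 0.22 without chow P21 replicate 3. Trh was at -0.91 (adjusted p = 0.0971) and Ntrk2 at -0.33 (adjusted p = 0.222). The medians at P21 were 0.22 for the accessory list, 0.20 for processing, 0.44 for the regulator list and -0.13 for the downstream list. Over all genes tested the median was -0.02. Of the 13 processing genes 11 were above 0.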

How the data were processed

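The authors deposited 1 table of normalized signal, in units like scaled CPM, with a column for each library. The submitters' processing notes list FastQC, TopHat2 2.0.13, Picard 1.80, HTSeq 0.6.1, the package edgeR and mm10. Per the labels' protocols, Nextera XT libraries gave single reads of 50 bases on a HiSeq. How the counting treated strand is not given in the sources used here, and neither is the annotation. The values behave as whole reads divided by a library size, since at least 99.8% were whole within 0.0055 units, against 23.9% to 39.9% by chance. Reads were recovered in 6 libraries, where at least 93.7% of low values lay within 0.1 read of whole. There edgeR 4.0.16 served as an alternative, and it had been foreseen as the main test had the values been counts. A further 15 columns are empty and were not used.

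The main test was limma 3.58.1 (R 4.3.3), with a variance trend and a pseudocount of 1 before the log2, on the libraries of the compared groups alone. Genes entered when they exceeded 1 in at least the number of libraries of the smaller group. The fits were tested on simulated data with less spread than the 4 genes had at P0, so that test does not cover them there. The 4 genes, the pathway and marker lists and the tests were chosen with earlier results of these data known. Named genes are the 4, up to 4 members of a pathway list that passed (otherwise the 2 with the smallest p), the 5 most like each gene, and defining markers. Of 56 pathway genes 52 were analysed. Alternatives were each library left out, pseudocounts of 0.1 and 5, no filter, other scalings, a robust prior, 1 fit of all groups and a replicate block.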

Additional observations from a re-analysis of the deposited data

Results flagged for a closer look

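Among 21 sets of 4 to 5 libraries (each gene and each ratio in each group large enough), 5 held a library set apart. Its gap to its nearest neighbour was large for the range of the group. By chance the rule flags about 1 set in 20 when sets are independent and values normally distributed. Gene values were taken here without a log, where high values spread more, and the ratio sets share Pomc. So the 5 cannot be set against that rate. In HFD P0, replicate 5 had Pomc at 1057.28 and Mc3r at 18.05. In chow P0, replicate 3 had Cartpt at 105.57. The log2 ratio of Mc3r to Pomc was -4.26 in HFD P0 replicate 1, above the rest of its group. The log2 ratio of Mc4r to Pomc was -4.56 in chow P0 replicate 1, also above the rest. All 5 lie at P0, and chow P21, with 3 libraries, was too small to be examined in this way.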

How the results depend on the processing

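Of the alternative values for the 4 genes, 363 kept direction and side of the threshold, 6 reversed, 3 gained and 4 lost the call. For the pathway genes, 731 kept both, 33 lost, 2 gained and 1 reversed. The cause of these changes was not tested unless stated. Alternatives on recovered reads and on the pathway genes were chosen after seeing the data. For HFD against chow at P0 (41 genes) the count was 10 with all groups in 1 fit, 3 with edgeR on recovered reads and 24 with limma on those libraries. Cartpt was there 0.61 and 0.62, reversed, Mc4r was -0.014 with pseudocount 5. With 1 library out the count was 18 to 135, Cartpt -0.85 to 0.071 and Mc4r -0.35 to 0.34. At P21 (25 genes) the count was 16 with no filter, 59 with quantile normalization and 42 with a robust prior, and 3 to 51 with 1 library out. Pomc was 0.17 to 0.99 with 1 library out, and Cartpt at 1.91 did not pass with all groups in 1 fit (adjusted p = 0.137). In chow offspring P21 against P0 (5251 genes) gave 926 with edgeR on recovered reads and 1070 with limma on those 4 libraries, where the single P21 library has to borrow the spread of the P0 group. Mc3r was 1.21 and 1.15 and did not pass, Pomc with limma was 4.24 and did not, and Agrp with edgeR was -0.095. Mc4r was 0.66 to 1.36 with 1 library out. The interaction (4 genes) had 2 to 557. Of the ratios, Mc4r to Pomc in chow offspring was -2.13 with pseudocount 0.1 (exact permutation p = 0.0714) and -2.95 to -1.98 with 1 library out, and at P21 Mc3r to Pomc was -0.49 to 0.92 and Mc4r to Pomc -0.073 to 0.82. At the lowest, Mc4r had an estimated 6 reads in 1 library and Mc3r 30.

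Pairing by replicate number was not established. At P0 same-numbered deviations correlated at 0.172, 0.273 and 0.492 for 3 of 5 numbers, each closest to its own number, and at -0.0389 and -0.173 for the others; at P21 they were -0.0439 to 0.101. With the replicate block the counts were 104 genes at P0, all 41 among them, 3 at P21 and 133 for the interaction, and Mc4r passed in chow offspring at 1.53 (adjusted p = 0.0429).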
